A study of Mus musculus with 6 samples.

Results

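The tumour necrosis factor (TNF) superfamily of ligands and the TNF receptor superfamily were examined in RNA-seq counts of mouse dendritic cells treated or not with DB2313. Members were the protein-coding genes named Tnfsf or Tnfrsf with a number, together with Tnf, Lta, Ltb, Ltbr, Cd27, Cd70, Cd40, Cd40lg, Fas, Fasl and Ngfr, which gave 42 of the 54532 genes counted, 17 ligands and 25 receptors. The rule is by gene name and type and uses no measured value, although it was written with earlier results of these data known. There were 3 control and 3 DB2313 libraries of cultured dendritic cells, and the labels gave no strain, age, dose or time of treatment. The study used DB2313 to inhibit Spi1 (PU.1), an ETS family transcription factor needed by myeloid cells. The sample labels named dendritic cells, and the study's own description of its RNA-seq named macrophages. Nothing in the labels said that the libraries of a group came from separate cultures or animals, so the p-values measure the spread between these libraries, which may be technical.

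Library depth ranged from 16146743 to 19764677 counts, and 14174 genes had enough counts to be tested. The control columns of the table bore a usual abbreviation of bone marrow-derived dendritic cell and the others the name of Spi1, and all directions given here depend on taking the latter as the DB2313 libraries. Spi1 itself had 345 to 380 CPM (counts scaled to a common library size) in control and 309 to 349 CPM with DB2313 (log2 fold change -0.15 ± 0.07 SE, edgeR adjusted p = 0.206). Within a group, DB2313 replicates 1 and 3 differed most, with a chi-square of 17.7 per degree of freedom against 4.77 to 5.28 between control libraries. Of 16 dendritic cell markers, 15 had a mean over 1 CPM, and Itgax, Flt3, Zbtb46, Cd74 and H2-Ab1 were all present in both groups. In the same list Cd209a was at 0 to 0.201 CPM and Xcr1 at 0.878 to 1.32 CPM over the 6 libraries. Itgax, the integrin chain CD11c, fell from a mean of 172 to 116 CPM (adjusted p = 0.000322). Batf3 fell from 106 to 71.5 CPM and Irf4 from 152 to 113 CPM (adjusted p = 0.00709 and 0.0018). Clec9a, at low levels, rose from a mean of 0.769 to 3.36 CPM (adjusted p = 0.0017). The libraries also held RNA of markers of other cell types, and these levels are given beside the results they touch. Of 13 macrophage markers, 11 had a mean over 1 CPM, with Csf1r at 689 and Adgre1 at 195 CPM in control. Timd4 was at 0 to 0.15 CPM and Vsig4 at 0 to 0.0615 CPM. In such bulk libraries, fewer cells of a type and less RNA per cell cannot be told apart.

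Ligands of this superfamily are mostly trimeric membrane proteins, some of which are shed by proteases, and they act by clustering their receptors. One class of receptors carries a death domain and can recruit caspase-activating complexes. Another recruits TRAF adaptors, which feed the NF-kB and MAP kinase pathways, and decoy receptors bind ligand without full signalling. In dendritic cells the superfamily carries much of the costimulatory exchange with T cells, and it also sets survival and maturation of the dendritic cells themselves.

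In the comparison of DB2313 with control, 3 members rose and 3 fell among the 36 that passed the filter. The ligands Tnfsf4 (OX40L) and Tnfsf11 (RANKL) and the death receptor Tnfrsf10b (the mouse TRAIL receptor) were higher. The death receptor Fas, the RANKL receptor Tnfrsf11a (RANK) and the costimulatory receptor Tnfrsf9 (4-1BB) were lower. A member was called at an edgeR adjusted p under 0.05 over all genes tested. The 6 called members made 16.7% of those tested, against a background of 10.6% of all genes, 4.66% higher and 5.94% lower. The groups did not overlap in CPM for 17 of 36 members, or 47.2%, against 27.4% of all genes, and 16 members had an unadjusted p under 0.05, against 23.3% of all genes. The members' median log2 fold change was -0.08, with 14 above and 22 below 0, and that of all genes was 8.2e-04. Among 15 tested ligands, 2 rose by edgeR, 1 by DESeq2 and 1 by limma-voom, and none fell by any of these tools. At an unadjusted edgeR p under 0.05, 3 ligands had a negative change, namely Tnf, Tnfsf12 and Tnfsf15. Tnfsf15 met the filter only through the control libraries, where it was higher, and it is also among the 17 and the 16 above. Exons shared with the readthrough gene Tnfsfm13 leave the counts of Tnfsf12 uncertain. Among 21 tested receptors, 1 rose and 3 fell by edgeR. DESeq2 called 0 receptors higher and 4 lower, and limma-voom 1 higher and 4 lower. Over the family, DESeq2 called 1 member higher and 4 lower, and limma-voom 2 higher and 4 lower. By class, edgeR called 1 higher and 1 lower of 5 tested death domain receptors, and 2 lower of 13 tested TRAF-binding receptors. No decoy receptor of 3 tested passed in edgeR, DESeq2 or limma-voom, and 1 had an unadjusted p under 0.05.

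**Figure D1:**
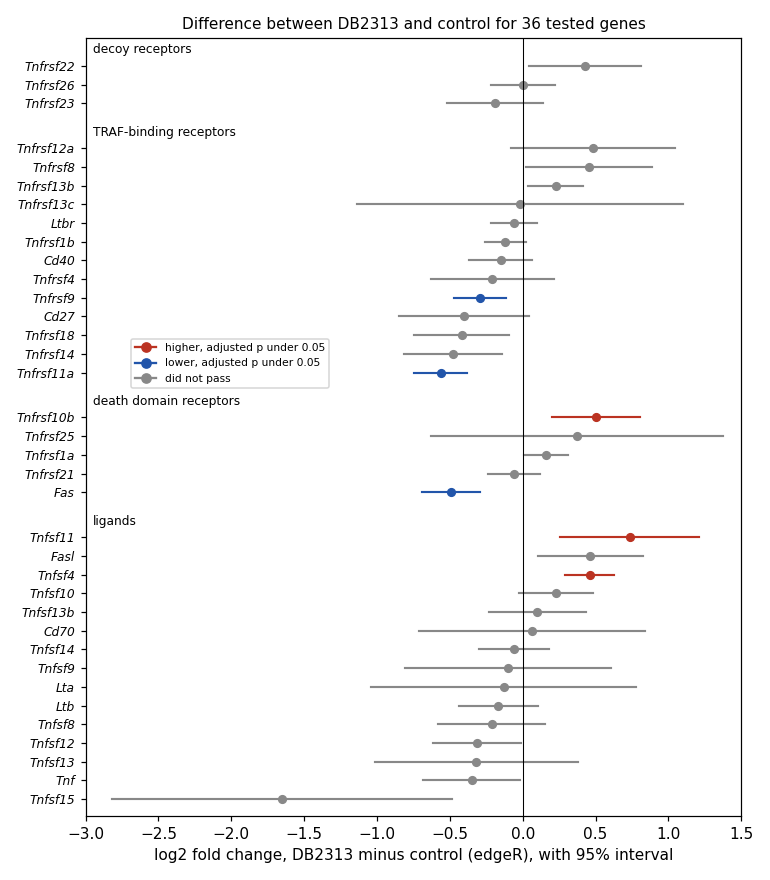
Log2 fold change of DB2313 against control for each of the 36 tested genes (x axis), with its 95% interval from the edgeR fit as a line, grouped by role (y axis). Red and blue mark the 3 genes higher and the 3 lower at an adjusted p under 0.05, and Tnfsf15 has the lowest value, -1.65, with a wide interval and no call.

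Promoter sequence is shown for the called members that had an entry in the RefSeq promoter table (GRCm38.p6) and for Fasl, the ligand of Fas, since the target of DB2313 binds DNA at sites built on the core GGAA. Of the 42 members, 32 had an entry. Tnfsf4 and Tnfrsf10b are named only. Each stretch holds 240 bases and ends 10 bases before the RefSeq start. It is written 5′ to 3′ on the strand of its gene, and capitals mark GGAA or its complement TTCC.
Fas chr19:34290409-34290648 (plus strand): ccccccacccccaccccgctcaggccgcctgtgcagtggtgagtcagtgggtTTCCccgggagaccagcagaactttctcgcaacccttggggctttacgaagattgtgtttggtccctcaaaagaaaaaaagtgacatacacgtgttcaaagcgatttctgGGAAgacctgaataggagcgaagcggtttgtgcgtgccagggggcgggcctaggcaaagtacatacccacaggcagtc
Fasl chr1:161788506-161788745 (minus strand): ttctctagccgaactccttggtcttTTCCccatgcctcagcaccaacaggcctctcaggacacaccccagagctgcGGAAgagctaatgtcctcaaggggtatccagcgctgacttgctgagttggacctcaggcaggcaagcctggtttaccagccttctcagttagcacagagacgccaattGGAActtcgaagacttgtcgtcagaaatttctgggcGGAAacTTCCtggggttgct
Tnfrsf11a chr1:105780473-105780712 (plus strand): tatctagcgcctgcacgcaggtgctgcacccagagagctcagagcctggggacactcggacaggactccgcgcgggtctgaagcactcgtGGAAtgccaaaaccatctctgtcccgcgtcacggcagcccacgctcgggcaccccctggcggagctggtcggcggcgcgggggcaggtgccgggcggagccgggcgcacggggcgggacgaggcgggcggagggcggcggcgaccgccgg
Tnfsf11 chr14:78308054-78308293 (minus strand): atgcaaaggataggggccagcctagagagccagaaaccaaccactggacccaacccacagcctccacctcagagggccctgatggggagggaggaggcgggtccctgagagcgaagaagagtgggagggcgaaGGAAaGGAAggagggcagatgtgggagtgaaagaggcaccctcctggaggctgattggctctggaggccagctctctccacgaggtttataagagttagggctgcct
Tnfrsf9 chr4:150919905-150920144 (plus strand): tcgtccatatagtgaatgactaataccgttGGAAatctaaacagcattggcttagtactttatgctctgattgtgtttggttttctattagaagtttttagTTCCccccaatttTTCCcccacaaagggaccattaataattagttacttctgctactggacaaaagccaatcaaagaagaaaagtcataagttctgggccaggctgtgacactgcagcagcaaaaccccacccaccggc
The stretches held 2 such cores for Fas, 5 for Fasl, 1 for Tnfrsf11a, 2 for Tnfsf11 and 3 for Tnfrsf9. The longer motifs GAGGAA and GAGGAAGT, which contain GGAA and were searched on both strands, were in none of them. Over 32851 stretches of the same length in the table, 92.7% held GGAA with a mean of 2.78 matches, 22.3% held GAGGAA and 2.29% held GAGGAAGT. The share of G and C was 74.2% for Tnfrsf11a and 41.7% for Tnfrsf9, the highest and lowest of the 5. The stretch of Tnfrsf9 lay inside the annotated span of the gene, which begins at 150914562, but in none of its exons. A second entry for Tnfrsf9 (chr4:150927749-150927998, plus strand) held 4 cores in its 250 bases and is not printed because it overlaps an annotated exon. These matches describe letters in the sequence and are no evidence of binding.

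Levels between genes were compared as RPKM, that is CPM per kilobase of the deposited gene length. In control, Tnfrsf1b (TNFR2, the TNF receptor without a death domain) had the highest RPKM of the family at 217 ± 4.75 (SD, n = 3 here and for the other levels). Tnfrsf9 followed with 93 ± 5.44 RPKM. Next came Tnfsf4 with 50.2 ± 1.85 RPKM and the death domain receptor Tnfrsf1a (TNFR1) with 50.1 ± 0.648 RPKM, which did not differ beyond their spread. With DB2313 the same pair stood at 69.1 ± 5.67 and 55.8 ± 2.95 RPKM, and Tnfsf4 was the highest ligand in both groups. The lymphotoxin beta receptor Ltbr had 33.7 ± 0.772, Fas 30.8 ± 0.623 and the ligand Ltb 28.6 ± 2.03 RPKM in control. Tnf itself had 7.63 ± 1.27 RPKM in control. The lowest tested members in control were Tnfrsf13c (the BAFF receptor), with 0.284 ± 0.0611 RPKM, and Tnfsf15 (TL1A), with 0.285 ± 0.0859 RPKM, which did not differ beyond their spread.

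**Figure D2:**
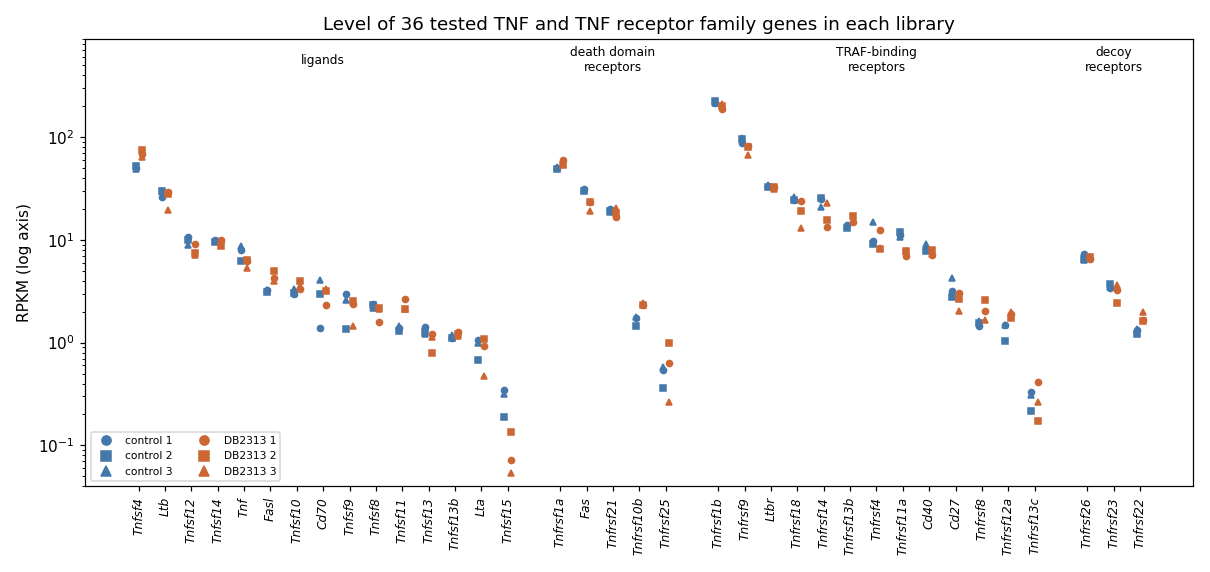
RPKM (log axis) of the 36 tested genes in each of the 6 libraries, grouped by role and ordered within each role by the control mean. Blue marks control and orange DB2313, and circles, squares and triangles mark replicates 1, 2 and 3. Tnfrsf1b stands highest at 217 RPKM in control, and Tnfsf4 is the highest ligand in both groups.

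Tnfsf4 (ENSMUSG00000026700, chromosome 1, 161395409 to 161418410, plus strand, GRCm38) encodes OX40L, which costimulates T cells through Tnfrsf4. It had 91.5, 96.3 and 89.7 CPM in the control libraries (replicates 1 to 3, the order used throughout) and 126, 138 and 118 CPM in the DB2313 libraries. Every DB2313 library lay above every control library. The rise was 37.5%, or 0.46 ± 0.08 (SE) as log2 fold change (edgeR adjusted p = 0.0015). It passed the threshold in all 15 alternative fits, at 0.40 to 0.51 on the log2 scale. Its receptor Tnfrsf4 (OX40), which activated T cells carry, had 13.3, 12.4 and 20.3 CPM in control and 17.1, 11.2 and 11.5 CPM with DB2313. These groups overlapped (log2 fold change -0.21 ± 0.20, adjusted p = 0.587). The summed CPM of 13 T cell markers, of which all 13 had a mean over 1 CPM, was 215 to 250 in control and 227 to 313 with DB2313. Cd28 rose in that list, from a mean of 18.2 to 24.2 CPM (adjusted p = 0.046), the only 1 of the 13 to pass. All 13 had a higher mean with DB2313, at log2 fold changes from 0.0047 for Lck to 0.41 for Cd28. Cd3e was at 18.2 and 19.8 CPM (adjusted p = 0.715) and Cd3g at 26 and 27.2 CPM (adjusted p = 0.821). Cd3d was at 29.3 and 35.5 CPM, Trac at 27 and 31.4 CPM and Cd5 at 8.21 and 10.3 CPM (adjusted p = 0.303, 0.455 and 0.205). The part of these cells in the level of Tnfrsf4 or of any other member was not tested.

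Tnfsf11 and Tnfrsf11a, the ligand and receptor pair RANKL and RANK, were called in opposite directions. RANKL is best known for driving osteoclast formation, and on dendritic cells its receptor supports survival. Tnfrsf11a (ENSMUSG00000026321, chromosome 1, 105780718 to 105847981, plus strand) had 66, 70.6 and 63.6 CPM in control and 41.3, 47.1 and 47 CPM with DB2313. The groups were well apart, and DB2313 replicate 1 was the lowest library. It fell by 32.3%, with a log2 fold change of -0.56 ± 0.09 and an edgeR adjusted p of 0.000628, and it passed in all 15 alternative fits at -0.60 to -0.50.

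Tnfsf11 (ENSMUSG00000022015, chromosome 14, 78277445 to 78308043, minus strand) had 3.14, 2.89 and 3.26 CPM in control and 5.95, 4.76 and 4.75 CPM with DB2313. The counts behind these values were 46 to 52 per library in control and 79 to 98 with DB2313, and the groups did not overlap. Its log2 fold change was 0.73 ± 0.22, with an adjusted p of 0.0491 just under the threshold. It was lost in 10 of 15 alternatives, with an adjusted p of 0.0503 among genes with a mean of at least 10 counts, 0.0846 in DESeq2 and 0.0594 in limma-voom. Leaving out 1 library gave an adjusted p of 0.122, 0.156 or 0.101 without control replicate 1, 2 or 3, and of 0.141 or 0.103 without DB2313 replicate 1 or 2. Its soluble decoy receptor Tnfrsf11b (osteoprotegerin) did not pass the filter, with 6, 3 and 5 counts in control and 10, 12 and 13 counts with DB2313. T cells are a known source of RANKL. The summed T cell markers were highest in DB2313 replicate 1, at 313 CPM, and lowest among the DB2313 libraries in replicate 3, at 227 CPM. The part of T cells in the level of Tnfsf11 was not tested.

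Fas and Fasl, the death receptor and its ligand, also differed in sign, but Fas alone passed the threshold. Fas (ENSMUSG00000024778, chromosome 19, 34290659 to 34327770, plus strand) had 56.6, 54.3 and 55.4 CPM in control and 41.9, 42 and 34.3 CPM with DB2313. Control libraries were close together, and DB2313 replicate 3 was the lowest. Fas fell by 28.9%, with a log2 fold change of -0.49 ± 0.09 and an edgeR adjusted p of 0.00308. The call held in all 15 alternative fits, at -0.54 to -0.40. Fasl (ENSMUSG00000000817, chromosome 1, 161780689 to 161788495, minus strand), which cytotoxic lymphocytes use to kill targets that carry Fas, had 6.27, 6.02 and 6.27 CPM in control and 8.2, 9.63 and 7.75 CPM with DB2313. All DB2313 libraries were above all control libraries, yet the adjusted p was 0.0985 (log2 fold change 0.46 ± 0.17, 95% interval 0.10 to 0.82). The summed markers of natural killer and innate lymphoid cells, 8 of 10 with a mean over 1 CPM, were 298 to 328 CPM in control and 271 to 317 CPM with DB2313. The largest part of this sum was Il7r, at a mean of 163 and 152 CPM (adjusted p = 0.394). Ncr1 was at 0.0502 to 0.627 CPM over the libraries and was not tested, and Klrb1c was at a mean of 2.81 and 2.34 CPM. Within that list, Klrk1 fell from a mean of 24.6 to 13 CPM (adjusted p = 9.5e-05), the only 1 of 8 tested markers to pass. Eomes was at 15.8 and 20.4 CPM (adjusted p = 0.0681) and Nkg7 at 41.6 and 43.5 CPM. Gzma was at 61 and 51.1 CPM, and Prf1 at 3.56 and 2.63 CPM (adjusted p = 0.264 and 0.433). Cd8a of the T cell list, whose sums are given with Tnfsf4, was at 32 and 41.1 CPM (adjusted p = 0.0889). In the same list Cd8b1 was at 7.5 and 8.94 CPM, Cd3e at 18.2 and 19.8 CPM and Lck at 41.5 and 41.6 CPM, none past the threshold. The part of these cells in the level of Fasl was not tested.

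Tnfrsf10b (ENSMUSG00000022074, chromosome 14, 69767472 to 69784411, plus strand) encodes the death receptor through which Tnfsf10 (TRAIL) induces apoptosis. It had 9.41, 7.97 and 9.66 CPM in control and 12.6, 12.7 and 13.1 CPM with DB2313. The DB2313 libraries lay close together and above all control libraries. The log2 fold change was 0.50 ± 0.14, a rise of 41.8%, with an edgeR adjusted p of 0.0324. The call was lost in DESeq2 (adjusted p = 0.0511) and without any 1 of control replicates 1, 2 and 3 (0.0763, 0.142 and 0.0615) or DB2313 replicate 2 (0.105). Up to 405 of the 5451 bp of its merged exons match another gene at 95% identity or more, and 132 genes share such a stretch, so reads there may be split between genes. Tnfsf10 had 15.6, 15.9 and 17.7 CPM in control and 17.5, 21.1 and 18.8 CPM with DB2313, which overlapped (log2 fold change 0.23 ± 0.12, adjusted p = 0.276).

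Tnfrsf9 (ENSMUSG00000028965, chromosome 4, 150914562 to 150946102, plus strand) encodes 4-1BB, known as a costimulatory receptor of T cells and also found on dendritic cells. It had 236, 258 and 265 CPM in control and 221, 218 and 180 CPM with DB2313. The groups did not overlap, and the gap was smallest between control replicate 1 and DB2313 replicate 1. It fell by 18.5%, with a log2 fold change of -0.30 ± 0.08 and an edgeR adjusted p of 0.0332. Without control replicate 1, 2 or 3 its adjusted p was 0.0573, 0.154 or 0.166, and without DB2313 replicate 2 it was 0.0811. Its ligand Tnfsf9 had 3.81, 1.76 and 3.32 CPM in control and 3.1, 3.31 and 1.86 CPM with DB2313, from 28 to 66 counts. These groups overlapped fully (log2 fold change -0.10 ± 0.33, adjusted p = 0.901), and 192 of the 1290 bp of its exons overlap Gm11110 on the opposite strand.

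**Figure D3:**
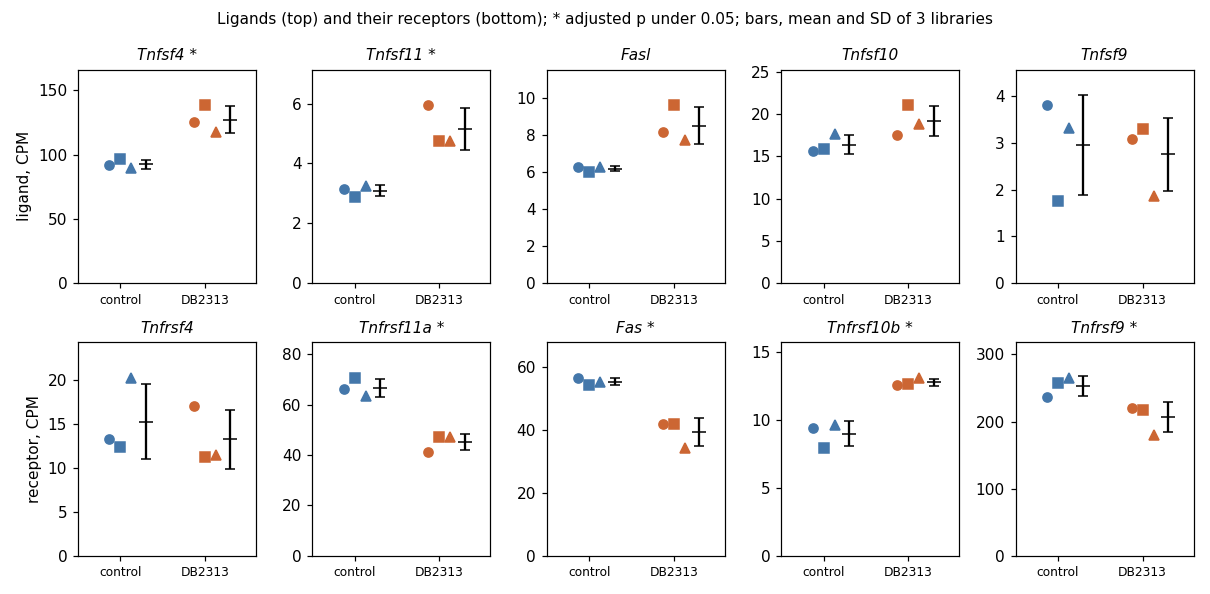
CPM of 5 ligands (top row) and their receptors (bottom row) in each library, with control in blue, DB2313 in orange, replicates 1 to 3 as circles, squares and triangles, and the mean and SD of 3 libraries as bars. Tnfsf11 rises above its control range while Tnfrsf11a falls below, and both groups of Tnfsf9 and of Tnfrsf4 overlap.

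The levels of ligand and receptor were also set against each other within each library, as the ratio of their RPKM. The ratio of Tnfsf11 to Tnfrsf11a was 0.127, 0.109 and 0.137 in the control libraries and 0.386, 0.271 and 0.27 in the DB2313 libraries. That of Fasl to Fas was 0.103, 0.103 and 0.105 in control and 0.182, 0.213 and 0.21 with DB2313. In both pairs the ligand stayed below the receptor in every library, and the DB2313 libraries lay above the control libraries. The ratio of Tnfsf4 to Tnfrsf4 was 3.28 to 5.77 in control and 5.43 to 9.13 with DB2313, which overlapped. For Tnfsf10 and Tnfrsf10b it was 1.72 to 2.06 in control and 1.45 to 1.72 with DB2313, the ranges meeting at their edge. Since these ratios combine levels already described, they were given no test of their own, and 0.1 is the smallest p that a two-sided exact permutation of 3 and 3 libraries allows.

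**Figure D4:**
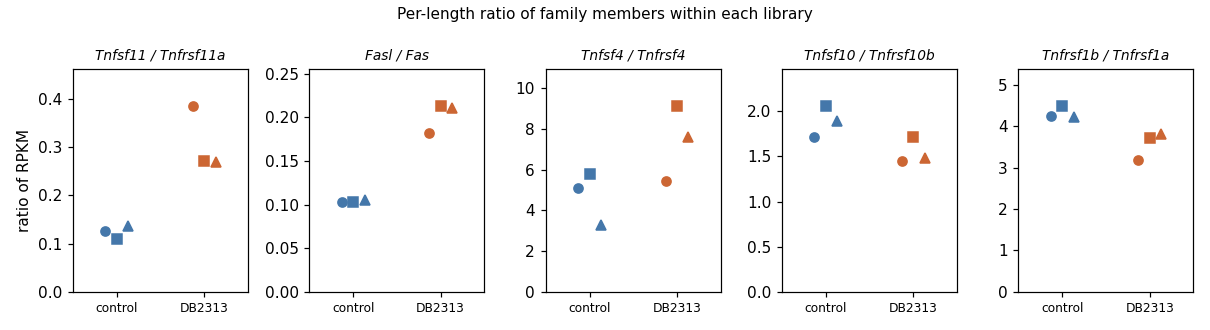
Ratio of RPKM between members of a pair in each library (y axis, from 0), with control in blue, DB2313 in orange and replicates 1 to 3 as circles, squares and triangles. Tnfsf11 to Tnfrsf11a lies at 0.109 to 0.137 in control and 0.27 to 0.386 with DB2313, and Tnfrsf1b to Tnfrsf1a at 4.24 to 4.50 in control and 3.20 to 3.83 with DB2313.

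Tnf (ENSMUSG00000024401, chromosome 17, 35199381 to 35202007, minus strand), the inflammatory cytokine that gave the family its name, had 13.2, 10.2 and 14.2 CPM in control and 10.3, 10.3 and 8.77 CPM with DB2313. The groups overlapped at control replicate 2. Its log2 fold change was -0.35 ± 0.16 (95% interval -0.69 to -0.017), and its edgeR adjusted p was 0.19. The receptor Tnfrsf1a had 130, 128 and 131 CPM in control and 153, 138 and 142 CPM with DB2313 (log2 fold change 0.16 ± 0.07, adjusted p = 0.192). The receptor Tnfrsf1b had 815, 848 and 817 CPM in control and 722, 757 and 804 CPM with DB2313 (log2 fold change -0.12 ± 0.07, adjusted p = 0.303). Each receptor was without overlap between the groups, in opposite directions, and neither passed the threshold. The ratio of Tnfrsf1b to Tnfrsf1a in RPKM was 4.24 to 4.50 in control and 3.20 to 3.83 with DB2313. Per length, Tnf was at 0.126 to 0.171 of Tnfrsf1a in control and 0.0974 to 0.118 with DB2313.

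Of the other ligands, none passed the threshold. Tnfsf15, a ligand that costimulates T cells through Tnfrsf25, had the lowest fold change of the family, from 19, 10 and 17 counts in control and 4, 9 and 3 counts with DB2313. Its groups did not overlap, at a log2 fold change of -1.65 ± 0.55 (95% interval -2.82 to -0.49) and an adjusted p of 0.0694. It met the filter on low counts through the control libraries, where it was higher. Tnfsf12 (TWEAK) and Tnfsf13 (APRIL) had log2 fold changes of -0.32 ± 0.14 and -0.32 ± 0.33. The readthrough gene Tnfsfm13 shares 731 of 1515 bp of the exons of Tnfsf12 and 983 of 1637 bp of those of Tnfsf13 on the same strand, so the counts of both are uncertain. The B cell survival factor Tnfsf13b (BAFF) had 7.56 to 8.15 CPM in control and 8.05 to 8.62 CPM with DB2313. The log2 fold changes of Ltb, Lta, Tnfsf8, Tnfsf14 and Cd70 lay between -0.21 for Tnfsf8 and 0.06 for Cd70.

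Several receptors came near the threshold. Tnfrsf14 (HVEM), which binds Tnfsf14 and the inhibitory receptor BTLA, had 36, 36.7 and 30.2 CPM in control and 19.1, 22.2 and 32.7 CPM with DB2313. DB2313 replicate 3 lay within the control range, unlike the other two. Its log2 fold change was -0.48 ± 0.16 with an adjusted p of 0.0662, which became 0.000108 without DB2313 replicate 3. Tnfrsf18 (GITR), another costimulatory receptor, had 37.3, 36.9 and 40.1 CPM in control and 36.1, 29.2 and 20.1 CPM with DB2313. Here DB2313 replicate 1 was next to the control libraries and replicate 3 the lowest (log2 fold change -0.42 ± 0.15, adjusted p = 0.0975), and without DB2313 replicate 1 the adjusted p was 0.00121. The antisense gene Gm16008 overlaps 414 of the 1524 bp of Tnfrsf18 exons.

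Other receptors without overlap between the groups, none past the threshold, were Tnfrsf8 (CD30, log2 fold change 0.45 ± 0.20), Tnfrsf12a (the TWEAK receptor, 0.48 ± 0.26) and Tnfrsf13b (TACI, 0.23 ± 0.09), all higher in each DB2313 library, and Ltbr (-0.06 ± 0.07), lower in each. Tnfrsf8 passed without DB2313 replicate 3, at an adjusted p of 0.0476. The decoy TRAIL receptor Tnfrsf22 had 5.14 to 5.77 CPM in control and 6.92 to 8.35 CPM with DB2313 (0.43 ± 0.18, adjusted p = 0.164). Cd40, the receptor through which helper T cells license dendritic cells, had 26.7 to 30.9 CPM in control and 24.5 to 27.1 CPM with DB2313 (-0.15 ± 0.10, adjusted p = 0.416). Cd27 was at -0.41 ± 0.21 and Tnfrsf25 at 0.37. The remaining tested receptors, Tnfrsf21, Tnfrsf13c, Tnfrsf23 and Tnfrsf26, lay between -0.19 for Tnfrsf23 and 0.0012 for Tnfrsf26.

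The remaining 6 members, including Tnfrsf11b described above, did not pass the filter. Tnfrsf19 had 4, 10 and 1 counts in control and 9, 4 and 9 counts with DB2313. Tnfsf18, the ligand of Tnfrsf18, had 1 count in control replicate 2 and 4 counts in DB2313 replicate 2, and 0 in the other libraries. Ngfr, the neurotrophin receptor, had 3 counts in control replicate 3 alone. Cd40lg (CD40 ligand), which activated helper T cells carry, had 1 count in DB2313 replicate 2 alone. Tnfrsf17 (BCMA), a receptor of plasma cells, had 0 counts in every library. A count of 0 allows a level of up to 3 counts, or 0.15 to 0.188 CPM depending on the library, and covers counting error only.

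Several members lie next to each other in the genome (GRCm38), and their values were compared by position. On chromosome 17, Ltb, Tnf and Lta lie 3.06 and 1.16 kb apart, with log2 fold changes of -0.17, -0.35 and -0.13, none called. On chromosome 4, Tnfrsf4 and Tnfrsf18 lie 9.55 kb apart, at -0.21 and -0.42. On the same chromosome Tnfrsf1b and Tnfrsf8 lie 20.3 kb apart and differ in sign, at -0.12 and 0.45. On chromosome 1, Tnfsf18 lies 76.2 kb from Tnfsf4 and 275 kb from Fasl, and it had almost no counts between 2 genes at 0.46 each. The decoy receptors Tnfrsf26, Tnfrsf22 and Tnfrsf23 on chromosome 7 are 6.08 and 16.1 kb apart, at 0.0012, 0.43 and -0.19. Tnfrsf22 shares up to 766 of its 4217 bp with other genes at 95% identity or more. No test of position was made.

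All 43 genes of a list of the downstream pathway were tested, of which 1 rose and 4 fell, or 11.6% against the background of 10.6%, with a median log2 fold change of -0.02. Ripk3, the kinase that starts necroptosis, had 54.4, 56.7 and 53.6 CPM in control and 69.2, 64.2 and 74.1 CPM with DB2313. It rose by 25.9% (log2 fold change 0.33 ± 0.08, edgeR adjusted p = 0.0168). Cflar (c-FLIP), which blocks caspase-8 at death receptors, had 147, 158 and 137 CPM in control and 103, 111 and 134 CPM with DB2313. The groups did not overlap, and DB2313 replicate 3 was close to control replicate 3 (log2 fold change -0.35 ± 0.09, adjusted p = 0.0264).

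Birc3 (cIAP2), a ubiquitin ligase bound to TRAF2, fell with a log2 fold change of -0.25 ± 0.07 and an adjusted p of 0.0375. Tnip1, which works with the ubiquitin editor A20, fell with -0.27 ± 0.08 and 0.0349. Map3k14 (NIK), the kinase of the alternative NF-kB pathway, fell with -0.23 ± 0.07 and 0.0398. By role, 2 of 11 ubiquitin ligases and editors, 2 of 12 kinases and 1 of 5 death effectors passed. None of 11 adaptors and none of 4 shedding proteases passed in edgeR, DESeq2 or limma-voom, where 3 adaptors and 1 protease had an unadjusted p under 0.05. Birc3, Tnip1 and Map3k14 lost the call without control replicate 1, 2 or 3 or DB2313 replicate 2, Birc3 also without DB2313 replicate 1, Cflar without control replicate 1 or 2 or DB2313 replicate 2, and Ripk3 without control replicate 1 or 3, with adjusted p up to 0.240. Leaving out 1 library moved the count of 5 to between 0, without control replicate 1, and 10, without DB2313 replicate 3. It was 1 without control replicate 2 or 3 or DB2313 replicate 2. Over all 15 alternatives, Birc3 and Map3k14 kept the call in 7, Tnip1 in 10, Cflar in 11 and Ripk3 in 13. Scaling by library totals lost Birc3, Map3k14 and Cflar, and the replicate block lost Birc3, Tnip1 and Map3k14. The block with the gene length offset lost Birc3 and Map3k14, and the fit with no filter lost Map3k14.

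Markers of other cell types moved between the groups or among the DB2313 libraries. Summed mast cell and basophil markers, 8 of 10 with a mean over 1 CPM, were 2519 to 2720 CPM in control and 2568 to 3079 CPM with DB2313, and 2 of them rose. Neutrophil markers, 10 of 10 over 1 CPM, summed to 4421 to 4973 CPM in control and 4487 to 5895 CPM with DB2313, and 3 rose. Macrophage markers, 11 of 13, summed to 10020 to 11380 CPM in control and 9060 to 9950 CPM with DB2313, with 2 higher and 5 lower, Csf1r among the latter. Most of this sum was Lyz2, at a mean of 8751 and 7887 CPM, which did not pass (edgeR adjusted p = 0.218). Dendritic cell markers summed to 11933 to 12198 CPM in control and 10024 to 11680 CPM with DB2313, with 1 higher and 3 lower. The largest part was Cd74, at a mean of 6557 and 5999 CPM, which did not pass (edgeR adjusted p = 0.326). Such sums follow their highest genes and do not measure the number of cells of a type. B and plasma cell markers, 3 of 8, summed to 117 to 119 CPM and to 106 to 112 CPM, and stromal markers, 4 of 10, to 93.7 to 103 CPM and to 98.9 to 108 CPM, where Col3a1 and Dcn were at 0. The sums of T cell, mast cell and neutrophil markers were highest in DB2313 replicate 1, and those of dendritic cell markers were lowest in replicate 3. The part of these cell types in the changes of the family was not tested.

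**Figure D5:**
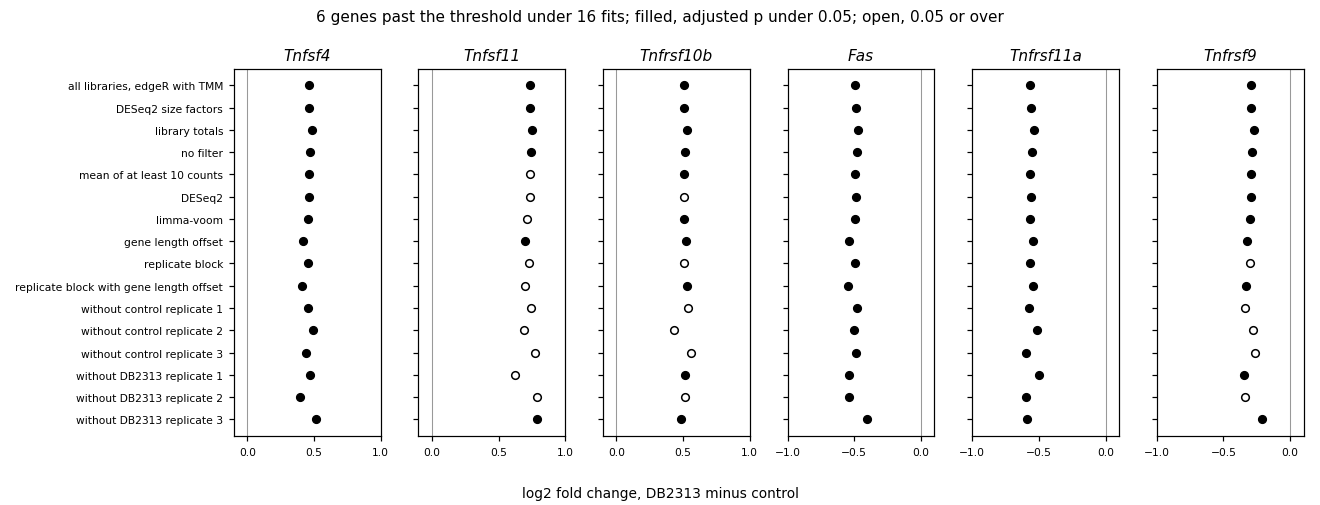
Log2 fold change (x axis) of the 6 called members under the fit reported and 15 alternatives (y axis). Filled points have an adjusted p under 0.05 and open points 0.05 or over. Tnfsf4, Fas and Tnfrsf11a are filled in all 16 rows, whereas Tnfsf11, Tnfrsf10b and Tnfrsf9 are open in some, and each gene stays on its side of 0.

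The calls of the family thus differed in how they held across the fits. Tnfsf4, Fas and Tnfrsf11a were called in each of the 16, with a highest adjusted p of 0.0218, 0.0242 and 0.00817. Without control replicate 1, 2 or 3 or DB2313 replicate 2, these 3 were the only members called. Without DB2313 replicate 3, 4 members were higher and 4 lower, with Tnfrsf8 and Tnfrsf14 added to the 6. DB2313 replicate 3 was the lowest DB2313 library for 17 of the 36 tested members (47.2%), against 36.6% of all genes.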

How the data were processed

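RNA was extracted with Trizol from cultured mouse dendritic cells, and libraries were made with Illumina protocols. The authors deposited unnormalised read counts for each gene and library, beside gene lengths in bp. The submitters' processing notes name CASAVA 1.8, HISAT2 2.0.5 and featureCounts 1.5.0-p3, whereas the methods of the study name LifeScope. The genome build and strandedness are not given in the sources used here. Coordinates are given as GRCm38, because start and end equalled those of GENCODE M21 for 98.33% of 54495 shared identifiers. For 41 of 42 members the deposited length equalled the merged exons.

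Columns were matched to the labels by name, those named for bone marrow-derived dendritic cells to control and those named for Spi1 to DB2313, numbered alike. Groups were compared by edgeR 4.0.16 (quasi-likelihood test, R 4.3.3) after TMM scaling and filterByExpr (minimum count 10), with no covariate, and p-values were adjusted by Benjamini-Hochberg over 14174 genes. The scripts were tested on simulated data. Total counts were 16146743 to 19764677 per library. CPM use TMM-scaled library sizes, and RPKM divide CPM by the deposited length. Reads carry no molecular identifiers, so errors cover the spread between libraries. The alternatives were DESeq2 size factors, library totals, a filter at a mean count of 10 or none, DESeq2 1.42.0, limma-voom (limma 3.58.1), a gene length offset (lowess, span 0.3), a replicate block, alone and with that offset, and each library left out in turn. Copies were searched with blastn 2.17.0 at 95% identity over at least 100 bp.

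The members and the gene lists were chosen with earlier results of these data known. Named with full values were the members past the threshold, their binding partners and Tnf, and the pathway genes past the threshold. Others are given by ranges, by role extremes, or because of their levels, overlap or lost calls, and those were picked after their values were seen.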

Additional observations from a re-analysis of the deposited data

How the results depend on the processing

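Over the alternatives, 486 of 539 log2 fold changes of single members kept their direction and their side of the threshold, 21 lost the call, 11 gained it and 21 changed sign, all of the last in members that were not called. The number of called ligands was 2, and 1 with a mean of at least 10 counts, with DESeq2 and with limma-voom. It ranged from 1 to 2 with 1 library left out. That of receptors was 4, and 2 to 6 with 1 library left out. For the pathway genes it was 5, and 2 with library totals, and 0 to 10 with 1 library left out. The numbers of all genes ranged from 328 to 1097 higher and from 411 to 1311 lower with 1 library left out, being lowest when DB2313 replicate 2 and highest when replicate 3 was omitted. Library totals gave 731 genes higher and 703 lower. The cause of these shifts was not tested.

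Numbers shared between groups gave no sign of a pairing of libraries, as the deviations of same-numbered libraries correlated at -0.008, -0.019 and -0.15. With 3 libraries a group, such correlations cannot exclude a pairing. Under the replicate block, 502 genes rose and 629 fell, with 1 ligand, 2 receptors and 2 pathway genes called. The adjusted p under the block was 0.0671 for Tnfrsf9, 0.0615 for Tnfrsf10b and 0.0866 for Tnfsf11. The block with the gene length offset gave 1 ligand, 6 receptors and 3 pathway genes, with an adjusted p of 0.00886 for Tnfrsf9, 0.0333 for Tnfrsf10b and 0.0850 for Tnfsf11.

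The following log2 fold changes changed sign, none called. With the gene length offset Cd70 was at -0.017 and Tnfrsf26 at -0.014, which was at -0.013 with the block as well, and with library totals Tnfrsf13c was at 8.5e-05. With 1 library left out, Cd70 ranged from -0.26 to 0.43, Lta from -0.38 to 0.14, Tnfrsf13c from -0.39 to 0.26, Tnfrsf21 from -0.13 to 0.0059, Tnfrsf25 from -0.12 to 0.73, Tnfrsf26 from -0.028 to 0.054, Tnfrsf4 from -0.43 to 0.050, Tnfsf14 from -0.097 to 0.0013 and Tnfsf9 from -0.36 to 0.12. Tnfrsf14 passed with no filter (0.00118), DESeq2 (0.0485), limma-voom (0.0453) and the length offset (0.0494), and Tnfrsf18 with no filter (0.00465) and the length offset (0.0128). With 3 libraries a group, members with few counts, such as Tnfsf15, Tnfrsf13c and the untested genes, have wide intervals.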
